A study of Mus musculus with 8 samples.

Results

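The genes described here are those of the proteasome subunits other than the inducible ones: the 37 whose symbols begin with Psma, Psmb, Psmc or Psmd and a number, out of 55536 genes listed. Of 44 matching symbols, the 3 genes of the inducible immunoproteasome sites (Psmb8, Psmb9 and Psmb10) and 4 pseudogenes were left out. The choice used names only and no measured value. One symbol, Psmc3ip, matches the pattern but encodes a meiotic recombination factor that binds an ATPase subunit and is not part of the particle, and Psmd5, Psmd9 and Psmd10 encode chaperones of the base that are absent from the finished particle. The other 33 encode subunits of the particle itself.

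The proteasome is the barrel-shaped protease that degrades proteins tagged with ubiquitin. Its core particle stacks rings of α subunits, which form the gate, and rings of β subunits, of which some carry the cutting sites. A regulatory particle docks on the gate: its base of ATPases unfolds the substrate, and its lid removes the ubiquitin chain. Dedicated chaperones assemble both parts, and the transcription factor NRF1 (gene Nfe2l1), released from the endoplasmic reticulum membrane and processed by NGLY1 and DDI2, is known for raising transcription of subunit genes together when proteasome activity falls short.

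RNA of whole liver was sequenced after ribosomal RNA removal, with the question of which transcripts change when Eif4ebp3, a repressor of cap-dependent translation, is knocked down. The mice were lean, wild-type C57BL/6 animals aged 2 months that were given 0.1 OD of adenovirus, and fasted overnight 1 week later. The control group (n = 4) was given virus expressing a short hairpin RNA against lacZ, a bacterial gene, and the knockdown group (n = 4) the same kind of virus directed at Eif4ebp3. Both groups were housed on a light-dark cycle with free access to food before the fast and both carried virus, no group without virus is among them, and the cells that took up the virus are not stated in the labels. Eif4ebp3 held 289, 216, 204 and 49.3 CPM (counts per 1000000 counted) across control replicates 1 to 4, against 9.62, 13.9, 37.2 and 19.5 CPM across the knockdown replicates, so control replicate 4 had the weakest contrast with the knockdown group. Replicate 4 of each group has the letter D in the authors' sample code and the other replicates the letter C, which the labels do not explain.

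Total counts ranged from 24371461 to 32389444 per sample. Hepatocyte markers dominated every sample, with a summed level of 75369 to 99219 CPM in control livers and 63035 to 83115 CPM in knockdown livers, and 10 of 12 fell with the scaling used below (with total counts 6 fell and 2 rose). Of the markers of other cells, 15 of 16 macrophage genes, 11 of 13 tested T and NK cell genes and 9 of 12 stellate cell genes rose (16, 11 and 12 with total counts), and their summed levels did not overlap between groups: 660 to 872 against 1719 to 1996 CPM, 18.5 to 38.1 against 59.6 to 83.2 CPM, and 232 to 283 against 596 to 1017 CPM. Of the T and NK cell genes Cd4 fell, from 6.99 to 2.07 CPM (log2 fold change -1.75, edgeR adjusted p = 7.11e-06, and -1.19 with total counts). Of the B cell, endothelial and cholangiocyte markers 1 of 5, 1 of 8 and 4 of 7 rose, and 0, 2 and 1 fell (with total counts 3, 2 and 6 rose and none fell). Of all genes tested, 29.4% rose and 27.8% fell with the scaling used below, and 63.9% rose and 7.72% fell with total counts. The B cell and endothelial counts lie near or under these shares. None of the markers in these lists was at 0 in all samples, and Ncr1 and Timp1 were at 0 in at least 1. In whole tissue, fewer cells of a type and less RNA per cell cannot be told apart, and the part of these shifts in the results below was not tested.

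The scaling between samples decides the sign of most proteasome differences, so the fold changes of the members are given under both scalings where these differ in direction or call. The 100 most abundant genes took 43.3 ± 1.79% of the counts in the controls and 32.4 ± 1.28% in the knockdown samples (SD, n = 4 each). TMM, which scales samples so that typical genes match, gave factors of 0.776 to 0.890 for the controls and 1.15 to 1.26 for the knockdown samples. Dividing by the total count instead shifted the median of all genes by 0.57 on the log2 scale. A TMM-scaled value is therefore relative to the typical gene, and a total-count value is relative to all RNA counted. Unless total counts are named, CPM and log2 fold changes here are TMM-scaled, and "rose" or "fell" means an adjusted p under 0.05 from edgeR's quasi-likelihood test (Benjamini-Hochberg over 15375 genes). On these terms Eif4ebp3 fell by 3.24 ± 0.53 on the log2 scale (SE, adjusted p = 0.000379), and by 2.67 with total counts. Of the 744 exon bases of Eif4ebp3, 501 are shared with AC115631.1 on the same strand. Reads from those bases cannot be told apart by strand.

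As a share of all counts the 37 genes were more abundant in the knockdown livers. They took 0.285%, 0.297%, 0.303% and 0.303% of the gene counts across control replicates 1 to 4, against 0.366%, 0.390%, 0.373% and 0.378% across the knockdown replicates. Each knockdown sample lay above each control. Relative to the typical gene the order was the opposite, with summed levels of 3675, 3632, 3771 and 3407 CPM in control livers against 2899, 3130, 3258 and 3110 CPM in knockdown livers, again without overlap. The proteasome share thus grew, but by less than that of the median gene.

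Gene by gene, 36 of the 37 passed the filter on low counts, 20 fell and 4 rose relative to the typical gene, and 12 did not pass the test. The share that fell (55.6%) stands beside 27.8% of all genes tested, and the share that rose (11.1%) beside 29.4%. The median log2 fold change of the 36 was -0.25, against 0.00 for all genes. With total counts 28 rose, 1 fell and 7 did not pass, beside 63.9% of all genes higher and 7.72% lower, and the median of the members was 0.32 against 0.56 for all genes. Under either scaling the members' median lay about equally far below that of all genes. A change of scaling moves all genes by about the same amount, so this equality holds by construction and is not separate support. With TMM-scaled values the knockdown samples lay wholly below the controls for 19 members (24.7% of all genes) and wholly above for 4 (27.4%). In the authors' deposited table, 20 members were lower and 4 higher at an adjusted p under 0.05, beside 27.1% and 29.0% of the genes that passed the count filter here. Psmd9 and Psmc3ip were the only members that at least doubled or fell to 0.5 of the control level, with an adjusted p of 0.05 or less, in the authors' deposited table (log2 values of -1.10 and 1.29), as did 21.5% of those genes.

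**Figure D1:**
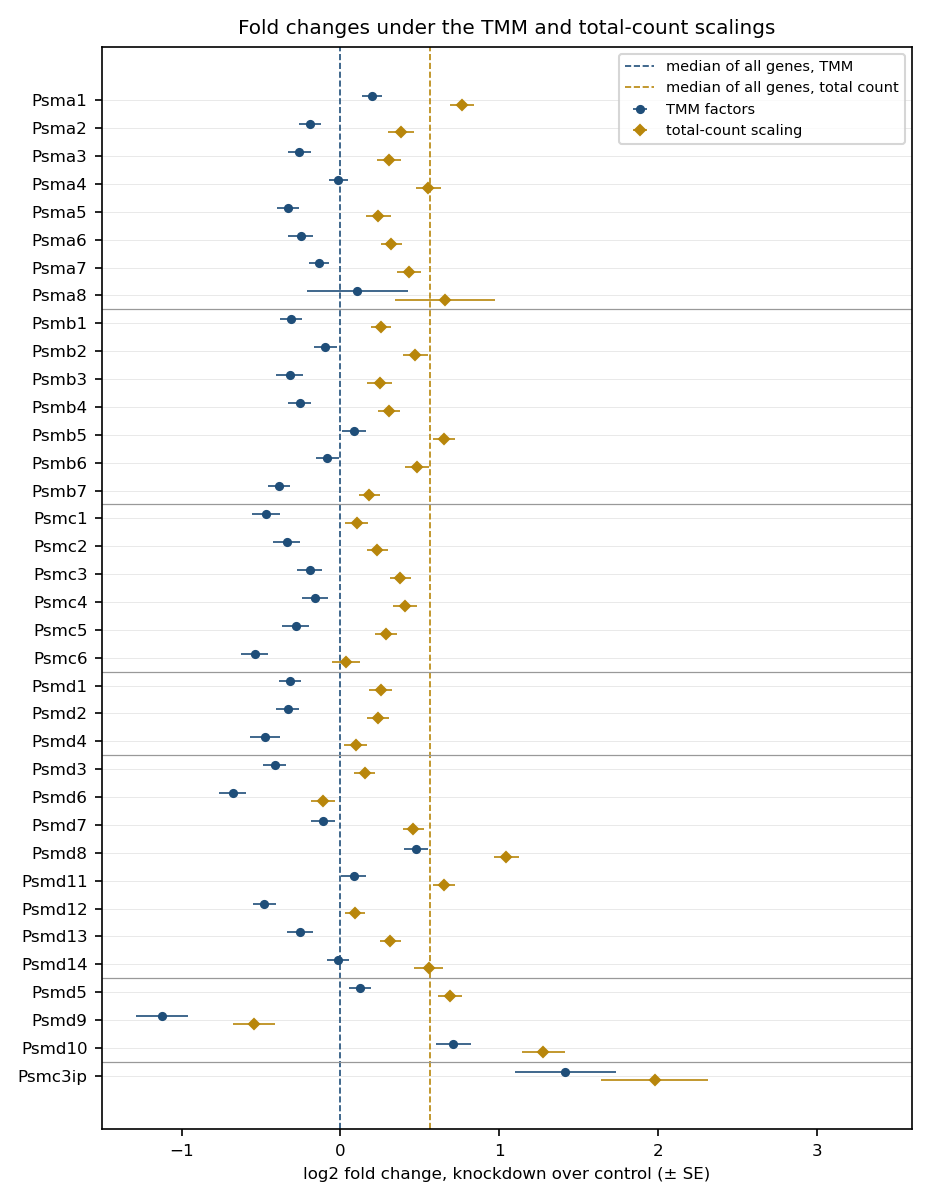
Log2 fold change of each tested gene (knockdown over control, 4 samples each), with its standard error, from TMM factors (circles) and total-count scaling (diamonds); dashed lines mark the median of all genes under each, and horizontal lines divide α ring, β ring, ATPases, other base subunits, lid, base chaperones and Psmc3ip. Most circles lie left of 0 and most diamonds right of 0, and most of each lie left of their own dashed line; Psmd9 is left of 0 and Psma1, Psmd8, Psmd10 and Psmc3ip are right of 0 under both scalings.

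With TMM and with total counts alike, 5 members were called in the same direction. Psmd8, Psmd10, Psma1 and Psmc3ip rose under both, and Psmd9 fell under both. Another 13 fell with TMM and rose with total counts, and 6 fell with TMM and were not called with total counts. A further 11 were called, as higher, only with total counts, and Psma8 was called with neither. All genes moved in the same way, from 27.8% lower and 29.4% higher with TMM to 7.72% and 63.9% with total counts. The share of all genes that kept their call was not counted.

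Promoter sequence was examined because NRF1 and its relative NRF2 bind antioxidant response elements and NF-Y binds CCAAT boxes, both known from proteasome promoters. Of the 37 genes, 30 were matched to 32 RefSeq promoter windows (GRCm38.p6, 250 bases before to 50 after a transcription start). The core TGACNNNGC, on either strand, was found in 5 of the 30 genes (16.7%), against 14.0% of 27025 genes in the same table. CCAAT, on either strand, was found in 13 (43.3%), against 41.1%. No gene held both, 12 held neither, and no matches of the TGACNNNGC and CCAAT motifs overlapped. The members' shares thus lie near those of all genes for these letters in these windows. The 5 matches to TGACNNNGC are printed here, 5′ to 3′ on the gene's strand with the match in capitals, because these genes include the only member that fell under both scalings (Psmd9), 2 of the 3 constitutive catalytic subunits (Psmb5 and Psmb6) and 2 of the 6 that fell with TMM alone (Psmc6 and Psmd12).
Psmb5 at chr14:54618004-54618072 (minus strand): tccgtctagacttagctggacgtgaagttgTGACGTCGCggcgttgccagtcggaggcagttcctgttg
Psmb6 at chr11:70525318-70525356 (plus strand): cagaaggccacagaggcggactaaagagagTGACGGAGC
Psmd9 at chr5:123228129-123228189 (plus strand): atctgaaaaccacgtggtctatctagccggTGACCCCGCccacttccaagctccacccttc
Psmc6 at chr14:45329574-45329635 (plus strand, motif on the other strand): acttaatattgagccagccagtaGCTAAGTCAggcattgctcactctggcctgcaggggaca
Psmd12 at chr11:107479278-107479319 (plus strand, motif on the other strand): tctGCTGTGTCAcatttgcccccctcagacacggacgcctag
The matches begin 47, 9, 31, 227 and 247 bases before the start in the order printed. Among the 4 genes that rose under both scalings, Psma1, Psmd10 and Psmc3ip held CCAAT boxes and Psmd8 held neither motif. The CCAAT boxes nearest the start of these 3 genes are printed for comparison, again with the match in capitals.
Psma1 at chr7:114276180-114276244 (minus strand): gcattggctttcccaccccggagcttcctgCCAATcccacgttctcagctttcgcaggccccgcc
Psmd10 at chrX:140956712-140956765 (minus strand, motif on the other strand): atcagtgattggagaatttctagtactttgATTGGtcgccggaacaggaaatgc
Psmc3ip at chr11:101095437-101095501 (minus strand): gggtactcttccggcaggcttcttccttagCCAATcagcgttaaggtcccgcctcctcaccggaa
These begin 98, 24 and 36 bases before the start. CCAAT was not confined to genes that rose. Of the other members with it, Psma2, Psma3, Psma6, Psmb3, Psmc1, Psmc2 and Psmd4 fell with TMM. Psma7 and Psmd14 did not pass with TMM, and Psmb11 was not tested. Of the members with TGACNNNGC, Psmb5 and Psmb6 did not pass with TMM.

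The α ring, which gates the chamber, held 8 tested genes. With TMM 4 fell (Psma2, Psma3, Psma5 and Psma6) and Psma1 rose, beside 27.8% and 29.4% of all genes. With total counts 7 rose, beside 63.9% of all genes. Psma1 (ENSMUSG00000030751, chromosome 7, 114264606 to 114276118) had 93.7, 96.6, 92.0 and 92.9 CPM in control livers against 104, 114, 105 and 107 CPM in knockdown livers. The groups did not overlap, and the log2 fold change was 0.20 ± 0.06 (SE, edgeR adjusted p = 0.0214), or 0.77 with total counts. The TMM call of Psma1 was lost without control replicate 1 (adjusted p = 0.0583), control replicate 3 (0.0591) or knockdown replicate 2 (0.0792). Psma5 (chromosome 3, 108256926 to 108279974) had the largest decrease of the ring with TMM. It held 72.3, 68.1, 74.7 and 71.5 CPM in control livers against 54.4, 61.0, 55.5 and 57.1 CPM in knockdown livers, without overlap, a log2 fold change of -0.33 ± 0.07 (adjusted p = 0.00174) that was 0.24 with total counts.

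The remaining α genes lay between these. Psma3 fell from 75.7 ± 1.16 to 63.2 ± 4.77 CPM and Psma6 from 106 ± 6.72 to 89.3 ± 6.48 CPM (SD, n = 4 each), log2 fold changes of -0.26 and -0.25 that were 0.31 and 0.32 with total counts. Psma2 fell from 67.9 ± 3.36 to 59.5 ± 3.19 CPM (-0.19, or 0.38 with total counts). Its call was lost on leaving out control replicate 1 or 3, or any of knockdown replicates 1, 3 and 4 (Psma2 adjusted p between 0.0635 and 0.101), and that of Psma6 without control replicate 1 (adjusted p = 0.0612) or knockdown replicate 1 (0.0565). Psma7 held 103 ± 1.88 against 94.2 ± 4.30 CPM and Psma4 103 ± 2.58 against 102 ± 1.40 CPM. Neither passed with TMM (adjusted p = 0.0995 and 0.874), although Psma7 passed without knockdown replicate 3 (adjusted p = 0.0405). With total counts Psma7 and Psma4 rose by 0.43 and 0.55. Psma8, the α subunit of testis proteasomes (chromosome 18, 14706151 to 14762301), was nearly silent, with 0.384, 0.514, 0.720 and 0.640 CPM in control livers against 0.442, 0.523, 0.860 and 0.616 CPM in knockdown livers. These overlapping values came from 8 to 25 counts, and the log2 fold change was 0.11 ± 0.32 (adjusted p = 0.793), or 0.66 without a call under total counts (adjusted p = 0.0802).

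In the β ring 4 of 7 tested genes fell and none rose with TMM, beside 27.8% and 29.4% of all genes. All 7 rose with total counts, beside 63.9% of all genes. Of the constitutive catalytic subunits, Psmb7 fell with TMM and Psmb5 and Psmb6 did not pass. Psmb5 (chromosome 14, 54614119 to 54618022), the chymotrypsin-like site, held 89.3, 88.7, 88.8 and 88.0 CPM in control livers against 84.5, 93.3, 104 and 95.3 CPM in knockdown livers. The controls lay within the range of the knockdown samples, and the log2 fold change of 0.09 ± 0.07 did not pass with TMM (adjusted p = 0.338), while 0.65 with total counts did. Psmb6 (chromosome 11, 70525367 to 70527858), the caspase-like site, held 87.6, 86.8, 94.5 and 88.3 CPM against 78.3, 85.3, 93.0 and 80.9 CPM. Its groups overlapped, and -0.08 ± 0.07 did not pass with TMM (adjusted p = 0.369), while 0.48 with total counts did. Psmb7 (chromosome 2, 38588036 to 38644087), the trypsin-like site, held 135, 144, 140 and 128 CPM against 97.7, 106, 109 and 106 CPM. Here every knockdown sample lay below every control, and Psmb7 fell by 0.39 ± 0.07 on the log2 scale with TMM (adjusted p = 0.000816) but rose by 0.18 with total counts. The exons of Psmb7 share 405 bases with Nek6 on the opposite strand, and the sources used here do not say whether counting used strand.

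Of the non-catalytic β genes, 3 fell with TMM and rose with total counts. Psmb1 went from 123 ± 3.35 to 99.1 ± 6.70 CPM, Psmb3 from 93.6 ± 5.75 to 75.0 ± 7.68 CPM and Psmb4 from 170 ± 6.59 to 142 ± 10.5 CPM (SD, n = 4 each). Their log2 fold changes were -0.31, -0.32 and -0.26 with TMM (edgeR adjusted p at most 0.0129) and 0.26, 0.25 and 0.31 with total counts. Psmb2 held 71.0 ± 4.32 against 66.5 ± 3.10 CPM and did not pass with TMM (-0.09, adjusted p = 0.282), but rose by 0.47 with total counts. Psmb11, the thymus-specific counterpart of Psmb5 and its neighbour on chromosome 14 (54621433 to 54629556), had 0 counts in every sample, where 3 counts would correspond to 0.0770 to 0.154 CPM, and was not tested. These floors cover counting error only.

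**Figure D2:**
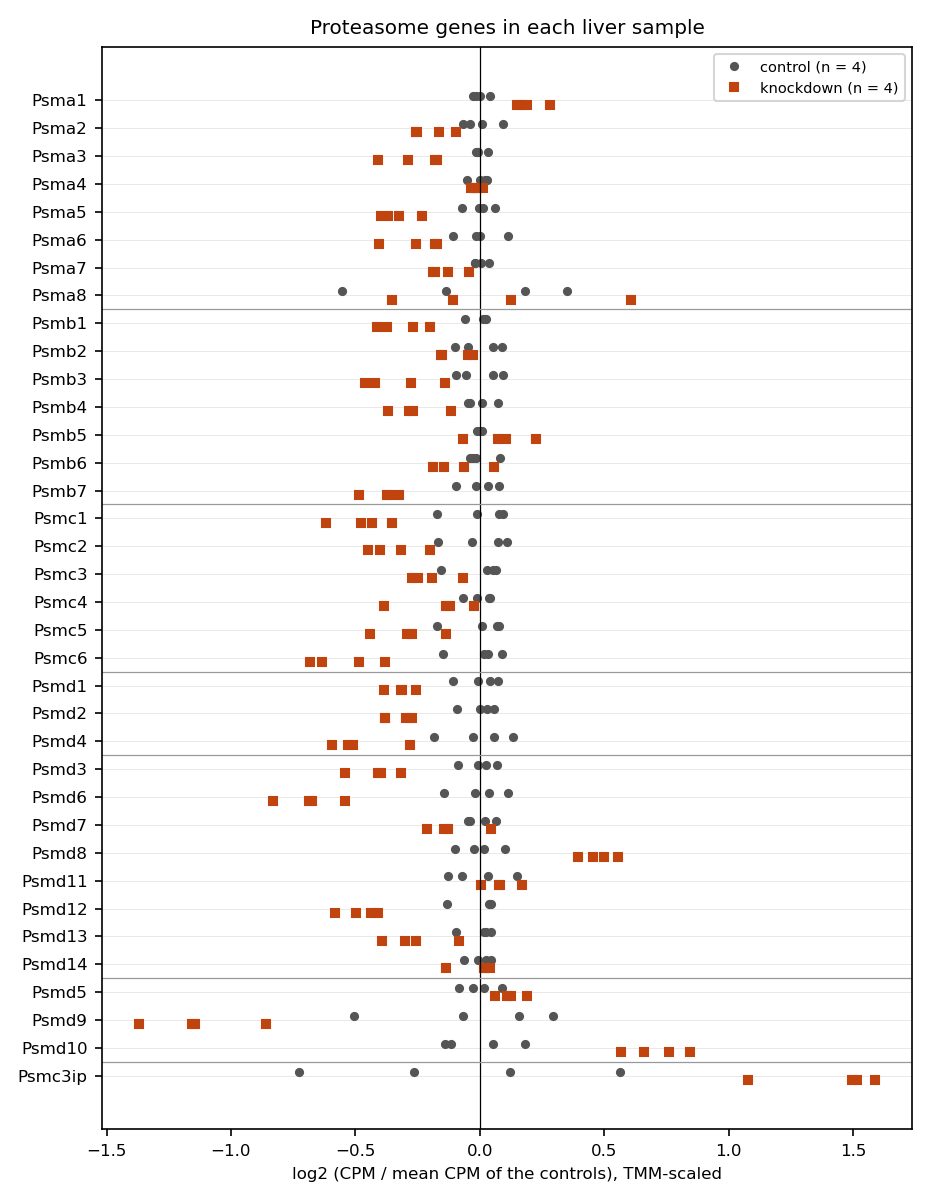
TMM-scaled CPM of each tested gene in each sample, as log2 of its ratio to the mean of the 4 controls (circles, controls; squares, knockdown), grouped as in the plot of fold changes. Squares lie mostly left of the circles on this scale, and under total counts most of these differences change sign; Psmd8 and Psmd10 lie to the right of all controls under either scaling, and Psmd9 to the left of all controls with TMM.

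The ATPases of the base, which pull the substrate into the core, were lower with TMM in 4 of 6 cases, beside 27.8% of all genes. With total counts 4 of 6 rose (66.7%), near the 63.9% of all genes. Psmc6 (chromosome 14, 45329788 to 45349705) held 95.1, 93.8, 98.8 and 83.7 CPM in control livers against 59.8, 66.2, 57.9 and 71.3 CPM in knockdown livers. The groups did not overlap, and it fell by 0.54 ± 0.09 on the log2 scale with TMM (adjusted p = 0.000339), with 0.03 and no call under total counts. Psmc1 fell from 191 ± 15.5 to 138 ± 10.4 CPM (-0.47, or 0.10 without a call under total counts). Psmc2 and Psmc5 fell from 98.4 ± 8.31 to 77.9 ± 6.00 CPM and from 87.1 ± 6.76 to 71.6 ± 6.21 CPM with TMM, and rose by 0.23 and 0.29 with total counts. Psmc4 (chromosome 7, 28041707 to 28050101) had the smallest TMM-scaled difference of the ATPases, with 111, 107, 112 and 103 CPM against 82.9, 99.7, 107 and 98.5 CPM. Its groups overlapped, and -0.16 ± 0.08 did not pass with TMM (adjusted p = 0.127) while 0.41 with total counts did. Psmc3 held 156 ± 10.7 against 137 ± 8.91 CPM, just short of the threshold with TMM (-0.19, adjusted p = 0.0572) and 0.38 with a call under total counts. Psmc3 passed as lower without control replicate 4 (adjusted p = 0.0163) or knockdown replicate 3 (0.0237).

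All 3 other base subunits fell with TMM, and 2 rose with total counts, beside 27.8% and 63.9% of all genes. Psmd4, a ubiquitin receptor (chromosome 3, 95032694 to 95042614), held 160, 151, 169 and 136 CPM in control livers against 102, 108, 127 and 107 CPM in knockdown livers. It fell by 0.47 ± 0.09 on the log2 scale without overlap (adjusted p = 0.00135), and was 0.10 without a call under total counts. Psmd1 (chromosome 1, 86064387 to 86139151), the larger scaffold, held 161, 156, 165 and 146 CPM against 126, 126, 120 and 131 CPM, again without overlap. It fell by 0.32 ± 0.07 with TMM (adjusted p = 0.00258) and rose by 0.26 with total counts. Psmd2, the second scaffold and the most abundant member by CPM, went from 265 ± 11.8 to 211 ± 8.35 CPM, a fall of 0.33 with TMM and a rise of 0.24 with total counts.

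The lid showed the widest spread among subunits. Psmd8 (ENSMUSG00000030591, chromosome 7, 29174188 to 29180701), a scaffold subunit of the lid, held 135, 124, 143 and 131 CPM in control livers against 175, 196, 188 and 183 CPM in knockdown livers. Every knockdown sample lay above every control, and Psmd8 rose by 0.48 ± 0.07 with TMM (adjusted p = 0.000237) and by 1.05 with total counts. Psmd6 (ENSMUSG00000021737, chromosome 14, 14112174 to 14120984), another lid scaffold, held 96.5, 92.8, 102 and 85.0 CPM against 52.9, 58.4, 59.0 and 64.5 CPM. Psmd6 had the largest fall among subunits of the particle, 0.68 ± 0.08 on the log2 scale (adjusted p = 5.42e-05), and its groups did not overlap, but with total counts it was -0.11 without a call. As shares of the summed counts of the 37 genes, which do not depend on the scaling, Psmd8 went from 3.68 ± 0.19% to 5.98 ± 0.21% and Psmd6 from 2.59 ± 0.088% to 1.89 ± 0.12% (SD, n = 4 each). Neither share overlapped between groups. Psmd8 and Psmd6 were named as the lid genes with the highest and lowest log2 fold change, so their opposite order follows from that choice. Of the 37 shares, 11 lay wholly above the controls in the knockdown samples, 10 lay wholly below and 16 overlapped. Such shares were not counted for all genes, so these counts have no like background beside them. With TMM-scaled CPM, a different measure, 27.4% of all genes lay wholly above and 24.7% wholly below.

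The other lid genes lay between these extremes. Psmd12 fell from 100 ± 5.79 to 71.9 ± 3.79 CPM and Psmd3 from 161 ± 7.34 to 121 ± 7.79 CPM with TMM (-0.48 and -0.41), and they were 0.09 and 0.15 without calls under total counts. Psmd13 fell from 90.7 ± 3.90 to 76.0 ± 6.99 CPM (-0.25, or 0.31 with total counts), a call that was lost without knockdown replicate 1 (Psmd13 adjusted p = 0.0541) or 2 (0.0518). Its exons share 342 bases with Sirt3 on the opposite strand, which held 89.3 ± 3.64 CPM in control livers and 46.4 ± 8.26 CPM in knockdown livers, and fell under both scalings. Psmd14, the deubiquitinase that cuts the chain off the substrate, held 46.6 ± 1.53 against 46.2 ± 2.50 CPM (-0.01, adjusted p = 0.887 with TMM, and 0.56 with a call under total counts). Psmd11 (102 ± 8.70 against 108 ± 5.12 CPM) and Psmd7 (73.5 ± 2.75 against 68.3 ± 5.34 CPM) did not pass with TMM either (0.08 and -0.11), and rose by 0.65 and 0.46 with total counts.

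Apart from Psmc3ip, the base chaperones, which escort ATPases into the particle, held the largest TMM-scaled changes of the set (Psmd9 and Psmd10). Psmd9 (ENSMUSG00000029440, chromosome 5, 123169413 to 123250131) held 78.0, 60.8, 71.1 and 44.8 CPM across control replicates 1 to 4, against 24.6, 28.6, 35.1 and 28.8 CPM across the knockdown replicates. The groups did not overlap, with control replicate 4 nearest the knockdown samples, and Psmd9 fell by 1.12 ± 0.16 on the log2 scale with TMM (adjusted p = 0.000171) and by 0.54 with total counts, under which the groups overlapped. The annotated span of Psmd9 contains the whole of Hpd (123171807 to 123182727, opposite strand), a tyrosine-degrading enzyme gene of hepatocytes that shares no exon bases with it. Only 1 of the 7 annotated Psmd9 transcripts reaches across Hpd, and the start site of the RefSeq promoter window printed above (123228190) lies beyond Hpd. Hpd held 2948, 2276, 2352 and 1404 CPM against 356, 363, 679 and 499 CPM in the same order of samples, and fell under both scalings. As for Psmd9, control replicate 4 was lowest among controls and knockdown replicate 3 highest in its group. That order was not particular to this pair of genes. Of the 12 hepatocyte markers, Alb, Apoa1, Apoa2, Serpina1a, Ahsg, Fgb, Hnf4a, Cps1 and Tat shared it, and Ttr, Trf and Apoc3 did not. Exons of Psmd9 also share 1849 bases with Gm26745 on the opposite strand. Whether reads from Hpd entered the Psmd9 count was not tested.

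Psmd10 (gankyrin, chromosome X, 140948429 to 140956728), an oncoprotein in liver as well as a base chaperone, moved the other way. It held 9.99, 8.74, 8.90 and 10.9 CPM in control livers against 15.2, 17.3, 14.3 and 16.3 CPM in knockdown livers. All knockdown values exceeded all control values, and Psmd10 rose by 0.71 ± 0.11 with TMM (adjusted p = 0.000242) and by 1.28 with total counts. Psmd5 held 41.2 ± 2.11 against 44.9 ± 1.69 CPM, which did not pass with TMM (0.12, adjusted p = 0.157) and passed with total counts (0.69). As shares of the summed counts of the 37 genes, Psmd9 went from 1.75 ± 0.34% to 0.942 ± 0.097% and Psmd10 from 0.267 ± 0.039% to 0.511 ± 0.050% (SD, n = 4 each), without overlap. Psmc3ip (chromosome 11, 101091823 to 101095436), the meiotic factor, was scarce, with 7, 4, 5 and 10 counts in the controls and 28, 32, 19 and 34 counts in the knockdown samples. It rose by 1.42 ± 0.32 with TMM (adjusted p = 0.00282), to 0.835 ± 0.124 CPM, and by 1.98 with total counts. Its exons share 385 bases with Mlx on the opposite strand, which held 44.1 ± 2.61 against 33.6 ± 4.97 CPM (-0.39 with a call under TMM, 0.17 without one under total counts), and reads of the pair cannot be told apart if the counting ignored strand.

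Compared per kilobase of the gene length that the authors list, levels of the 31 particle subunits with a mean of at least 10 CPM spanned a wide range within a group. In the controls they ran from 23.3 CPM per kilobase for Psma2 to 144 for Psmb4, with a median of 75.2. In the knockdown samples they ran from 20.4 for Psma2 to 123 for Psmd8, with a median of 67.3. Psmd8 stood at 88.1 CPM per kilobase in the controls and was the highest of the set in the knockdown samples. The base chaperones Psmd10 and Psmd5 lay below this range in both groups, with control levels of 6.74 and 9.37 CPM per kilobase and knockdown levels of 11.0 and 10.2. Psmd9 lay just above Psma2 in the controls (24.5) and below the range in the knockdown samples (11.3).

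**Figure D3:**
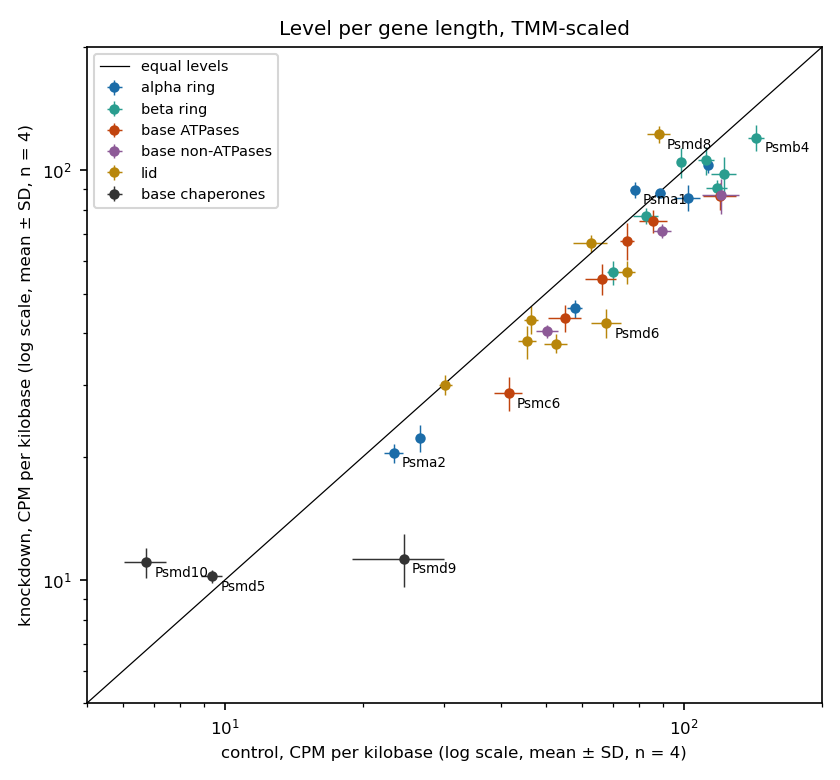
Mean TMM-scaled CPM per kilobase of listed gene length in controls and knockdown samples (log axes, bars are SD of 4 samples), coloured by position in the particle; Psma8, Psmb11 and Psmc3ip are left out as too low. Psmd8, Psmd10 and Psma1 lie farthest above the line of equal levels, and Psmd5, Psmb5 and Psmd11 slightly above it. Psmd9 and Psmd6 lie farthest below it. With total counts the points shift up, and Psmd9 and Psmd6 stay below the line.

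The proportion of core to regulatory particle transcripts overlapped between the groups. Summed core counts (Psma and Psmb) divided by summed counts of Psmc1 to Psmc6 and all Psmd genes, a ratio free of the scaling, were 0.605, 0.632, 0.609 and 0.666 in control replicates 1 to 4. In knockdown replicates 1 to 4 the ratios were 0.668, 0.669, 0.670 and 0.662. Control replicate 4 lay among the knockdown samples, and the mean difference was 0.09 on the log2 scale, or 0.12 without that control. No test was made of this sum.

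**Figure D4:**
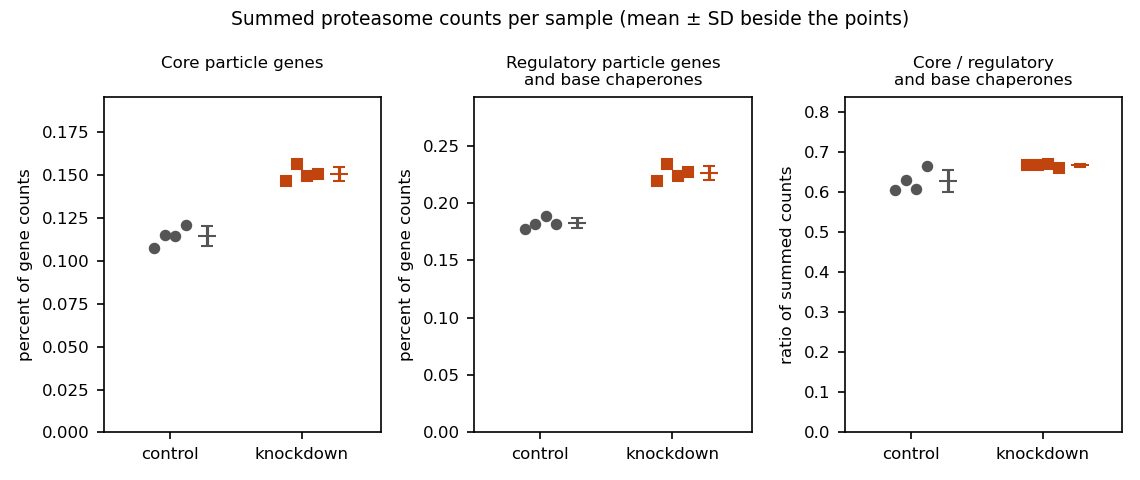
Share of gene counts taken by core particle genes, the same for regulatory particle genes with the base chaperones, and the ratio of the sums, per sample (points) with mean and SD (n = 4 each). Both shares are higher in every knockdown sample, while the TMM-scaled sums are lower, and the ratio of one control reaches the level of the knockdown samples.

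The inducible subunits, which replace the constitutive sites in immunoproteasomes and are abundant in immune cells and after interferon, moved apart from the genes they replace. Psmb8 held 30.4, 29.0, 32.2 and 42.9 CPM in control livers against 80.6, 76.1, 69.0 and 66.4 CPM in knockdown livers, and Psmb8, Psmb9 and Psmb10 rose by 1.12, 1.22 and 1.26 with TMM (adjusted p at most 5.21e-05) and by 1.68, 1.78 and 1.82 with total counts. Within a sample, Psmb8 counts per Psmb5 count were 0.341, 0.327, 0.363 and 0.488 in the controls and 0.953, 0.816, 0.665 and 0.696 in the knockdown samples. The geometric means of the groups differed 2.07-fold. The ratio of Psmb9 to Psmb6 went from 0.238 ± 0.0587 to 0.590 ± 0.0740 (2.52-fold between geometric means) and that of Psmb10 to Psmb7 from 0.155 ± 0.0332 to 0.483 ± 0.0507 (3.15-fold between geometric means; SD, n = 4 each). All 3 ratios were higher in 4 of 4 knockdown samples than in any control, with an exact two-sided permutation p of 0.0286 each, the smallest that 4 against 4 allows, and 0.0286 after adjustment over the 3. Control replicate 4 had the highest ratio of the controls in each case. In the same samples 15 of 16 macrophage and 11 of 13 T and NK cell markers rose, with Cd4 lower, as did 9 of 10 type I interferon response genes, also with total counts (summed level 240 to 375 against 524 to 673 CPM), and their part in these ratios was not tested. Of all genes tested, 29.4% rose with TMM and 63.9% with total counts. Exons of Psmb8 and Psmb9 share bases with Gm20496 and Tap1 on the opposite strand.

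**Figure D5:**
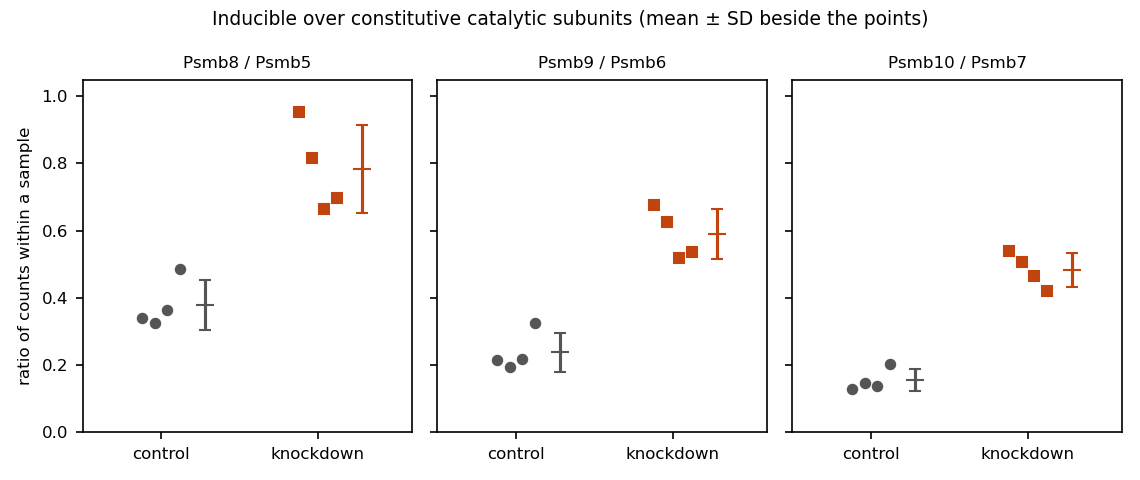
Counts of each inducible catalytic subunit divided by those of the constitutive subunit it replaces, in each sample (points), with mean and SD of 4 samples per group. Each ratio is higher in every knockdown sample than in any control; since lengths of the genes differ, heights are compared between groups and not between panels.

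Around the particle, 12 of 53 tested genes of 7 related lists, the 3 inducible subunits included, rose and 14 fell with TMM, beside 29.4% and 27.8% of all genes. With total counts 44 rose and 1 fell, beside 63.9% and 7.72% of all genes. Of the activators and the inhibitor, Psme1 and Psme2, subunits of an interferon-inducible activator, rose from 75.6 ± 8.71 to 150 ± 9.06 CPM and from 47.0 ± 5.64 to 85.4 ± 5.38 CPM, also with total counts. Psme4, another activator, fell from 169 ± 8.76 to 111 ± 5.37 CPM, but was -0.04 without a call under total counts. Of 7 core assembly and import factors, Psmg4 and Ipo9 rose (0.63 and 0.28 with TMM, 1.20 and 0.85 with total counts) and Psmg3 fell (-0.43, or 0.13 without a call under total counts). The Ipo9 call with TMM was lost without control replicate 1 (Ipo9 adjusted p = 0.0553) or knockdown replicate 1 (0.0543) or 2 (0.0587). Pomp, which completes core assembly, held 76.3, 79.1, 74.1 and 79.8 CPM against 70.6, 74.1, 77.4 and 78.0 CPM. These overlapped, with -0.04 and an adjusted p of 0.598 with TMM and 0.52 with a call under total counts.

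Among 9 tested particle-associated genes, 4 fell and 1 rose with TMM, beside 27.8% and 29.4% of all genes. Ecpas, a proteasome adaptor, and the deubiquitinase gene Usp14 fell by 0.43 and 0.34, and the ligase gene Ube3c by 0.36, but with total counts they were 0.14 without a call, 0.23 and 0.21. Zfand2a, a stress-induced regulator, rose by 0.30 (0.87 with total counts). Of 8 ubiquitin receptors and shuttles 5 fell and 1 rose with TMM, beside the same shares of all genes. Ddi2, the protease that cleaves NRF1, fell from 419 ± 12.7 to 212 ± 22.8 CPM (-0.98, adjusted p = 6.05e-06) and also fell with total counts (-0.42), while Rad23b and Nbr1 fell by 0.38 each with TMM and rose by 0.19 each with total counts. Ubqln2 rose under both scalings (0.46 and 1.03). Exons of Ddi2 share 1749 bases with Rsc1a1 on the same strand. Of the 6 genes for ubiquitin and its activating enzymes 0 passed with TMM in edgeR, where 1 (Ubb) had an unadjusted p under 0.05. DESeq2 and voom each called 1, also Ubb, and with total counts 5 of the 6 rose, beside 63.9% of all genes.

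Among 15 regulators of subunit transcription, 3 rose and 3 fell with TMM (20% each), below the 29.4% and 27.8% of all genes. Nfe2l1 (NRF1; chromosome 11, 96817414 to 96829968) held 188, 169, 193 and 178 CPM in control livers against 134, 129, 146 and 116 CPM in knockdown livers. Its groups did not overlap, and Nfe2l1 fell by 0.47 ± 0.08 on the log2 scale with TMM (adjusted p = 0.000703), with 0.10 and no call under total counts. Nfe2l2 (NRF2; chromosome 2, 75675513 to 75704641) held 66.9, 61.0, 61.0 and 71.4 CPM against 172, 188, 160 and 133 CPM, and rose by 1.33 ± 0.11 with TMM and 1.89 with total counts. The small Maf partners Maff and Mafk rose under both scalings (2.46 and 0.78 with TMM). Ngly1, which strips sugars from NRF1, fell from 45.7 ± 3.82 to 29.2 ± 1.15 CPM (-0.64 with TMM, adjusted p = 5.42e-05), and was -0.07 without a call under total counts.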

How the data were processed

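Liver RNA of 4 control and 4 knockdown mice was analysed from a table of deposited estimated counts per gene, not normalized, of which 10.9% were not whole and were rounded. The submitters' processing notes name fastp 0.19.5, Bowtie2 2.2.9, GATK 3.8, SAMtools 1.9 and mm10; for the counter, its annotation and its use of strand, none is given in the sources used here. A comparison table that the authors deposited gave a fold ratio, its log2 value, p-values and adjusted p-values per gene, per the file headers, and gene lengths. No sample column was left unmapped (0). Of 56181 entries, 645 assembled loci without a gene identifier (0.676 to 1.08% of the counts) were left out; all 55536 identifiers were found in GENCODE release M21, whose mm10 coordinates are given.

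Genes with low counts were removed with edgeR's filterByExpr, which left 15375. They were fitted with TMM factors and the quasi-likelihood test over both groups without covariates (edgeR 4.0.16, R 4.3.3, Benjamini-Hochberg threshold 0.05). The fit was also tried on counts simulated from the control means. Few genes were changed there, as many up as down, so the trial does not probe a broad shift such as that between the scalings. Alternatives were total-count, RLE and upper-quartile scaling, DESeq2 1.42.0, limma 3.58.1 (voom), other count filters, kept loci, a replicate block, the letter in the authors' sample codes, and leaving out each sample. No pair of replicates agreed within sampling noise (lowest chi-square per degree of freedom 8.94). The labels call the samples separate and say no more, so p-values measure only the spread between these samples. Ratios of counts within a sample were compared by exact permutation. Named in full were the catalytic subunits, the members with the highest and lowest log2 fold change of each ring or subcomplex, the genes outside the particle that match by name or replace a subunit, 3 regulators, and up to 4 changed genes of each related list with the smallest p. Hpd, Sirt3 and Mlx were added after their values were seen. The members, lists and tests were chosen with earlier results of these data known. The result of 1 list of cell type markers is not reported here.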

Additional observations from a re-analysis of the deposited data

Results flagged for a closer look

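In 7 of 132 groups of 4 samples examined, 1 sample's CPM lay apart from the other 3 by more than Dixon's critical share of the group's range. Chance alone gives this in about 1 of 20 groups, so the number flagged was near the chance level. In the controls, replicate 4 was the sample apart each time: it was highest for Psma3 (77.4 CPM, range from 74.9) and lowest for Psmb1 (118 CPM, range to 125), Psmd12 (91.6 CPM, range to 103) and Usp14 (49.7 CPM, range to 55.9). In the knockdown samples it was replicate 3 each time: it was lowest for Psmd14 (42.5 CPM, range to 47.9) and highest for Psmg3 (13.3 CPM, range from 10.8) and Ddi2 (246 CPM, range from 198). In these 2 samples Eif4ebp3 was the lowest of the controls (49.3 CPM) and the highest of the knockdown samples (37.2 CPM). Its part in these values was not tested.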

How the results depend on the processing

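With total-count scaling 28 members rose and 1 fell, in place of 4 and 20, and the log2 fold change turned positive for Psma2 (0.38), Psma3 (0.31), Psma4 (0.55), Psma5 (0.24), Psma6 (0.32), Psma7 (0.43), Psmb1 (0.26), Psmb2 (0.47), Psmb3 (0.25), Psmb4 (0.31), Psmb6 (0.48), Psmb7 (0.18), Psmc1 (0.10), Psmc2 (0.23), Psmc3 (0.38), Psmc4 (0.41), Psmc5 (0.29), Psmc6 (0.034), Psmd1 (0.26), Psmd2 (0.24), Psmd3 (0.15), Psmd4 (0.10), Psmd7 (0.46), Psmd12 (0.090), Psmd13 (0.31) and Psmd14 (0.56). Outside the set the same held for Psmg3 (0.13), Pomp (0.52), Ecpas (0.14), Usp14 (0.23), Ube3c (0.21), Rad23b (0.19), Nbr1 (0.19) and Nfe2l1 (0.10). This scaling moved the median of all genes by 0.57. Of 1157 comparisons over 61 named genes, 1079 kept direction and call, 33 lost the call, 11 gained it and 34 reversed, all 34 with total counts.

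The counts of members higher and lower were 4 and 22 with DESeq2, 4 and 20 with voom, 4 and 20 with RLE factors, 5 and 14 with upper-quartile factors, 3 and 16 with no filter, and 3 and 20 for a mean of at least 1 CPM. They were 4 and 21 with the sample code's letter as a term, 3 and 20 in the samples coded C alone, and 4 and 20 with the assembled loci kept. Without 1 sample each, members higher numbered 3 to 4 and members lower 17 to 21, and the log2 differences of the ratios ranged from 0.95 to 1.17 (Psmb8 to Psmb5), 1.24 to 1.49 (Psmb9 to Psmb6) and 1.58 to 1.80 (Psmb10 to Psmb7).

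Deviations of same-numbered samples were weakly correlated (r from -0.128 to 0.148), within the range of the other pairs (-0.268 to 0.169). With 4 samples per group this gives no sign of pairing but cannot exclude it. With a replicate block 4 members rose and 18 fell, with Psma2 (adjusted p = 0.0857) and Psma6 (0.0508) not called. For the Psmb8 to Psmb5, Psmb9 to Psmb6 and Psmb10 to Psmb7 ratios the block leaves the log2 differences of 1.05, 1.33 and 1.66 as they are by construction, with an exact sign-flip permutation p of 0.125, the smallest that 4 pairs allow. The core to regulatory difference was 0.07 to 0.12 without 1 sample each, 0.09 per kilobase and, in an alternative chosen after seeing the data, 0.08 without the base chaperones. Psma8 and Psmc3ip rest on few counts, which limits their precision.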
